A study of Callithrix jacchus with 4 samples.

Results

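Microglia were taken as the nuclei that carried this name in the deposited annotation of each cohort, and there were 7862 of them among 38147 nuclei. The 3 injured libraries held 7733 of 29537 nuclei and the control library held 129 of 8610. Single nuclei came from gray matter of the primary visual cortex (V1) of adult marmosets, and the transcripts of each nucleus were counted as unique molecular identifiers (UMIs). The injured cohort consisted of 3 animals (F1565, F1619 and F1711, 1 library each) killed 7 days after endothelin-1, a vasoconstrictor, was injected into V1 to induce a focal ischemic stroke; their dissection included the core and penumbra. The control cohort was 1 library of tissue pooled from 3 uninjured animals, which had received no injection. The labels name no genetic change in either cohort. Injured nuclei were collected by ultracentrifugation through sucrose, and control nuclei were sorted by a nuclear dye. The nuclei of each cohort went to a different facility, and the paper names an Illumina sequencer for the injured cohort and an MGI sequencer for the control. The cohorts were also filtered and clustered separately. Injury, nuclei isolation, facility, sequencer and processing thus cannot be told apart in any difference between them.

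Microglia are the resident macrophages of the brain parenchyma. In intact cortex they are recognised by homeostatic genes such as the fractalkine receptor *CX3CR1*, the purinergic receptor *P2RY12* and the transcription factor *SALL1*. After ischemia they proliferate, take up debris and present antigen, while monocytes, other macrophages and lymphocytes enter the lesion from the blood.

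The injured libraries held far more nuclei of this class. Microglia were 21.5% of nuclei in F1565 (exact binomial 95% interval 20.8 to 22.2), 37.6% in F1619 (36.5 to 38.7) and 23.3% in F1711 (22.5 to 24.2). In the control library they were 1.5% (1.25 to 1.78). The injured mean was 27.5% ± 8.84 (SD, n = 3), or 18.3 times the control share, and no injured library came near the control value. An exact permutation test of 3 libraries against 1 cannot give a two-sided p below 0.25, the value found here. Intervals cover counting error only. The study's methods name an upper limit of 2500 genes for control nuclei, but 7418 of the 8610 deposited control nuclei were within it. Restricting both cohorts to this limit gave 34.3% against 1.74%.

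**Figure D1:**
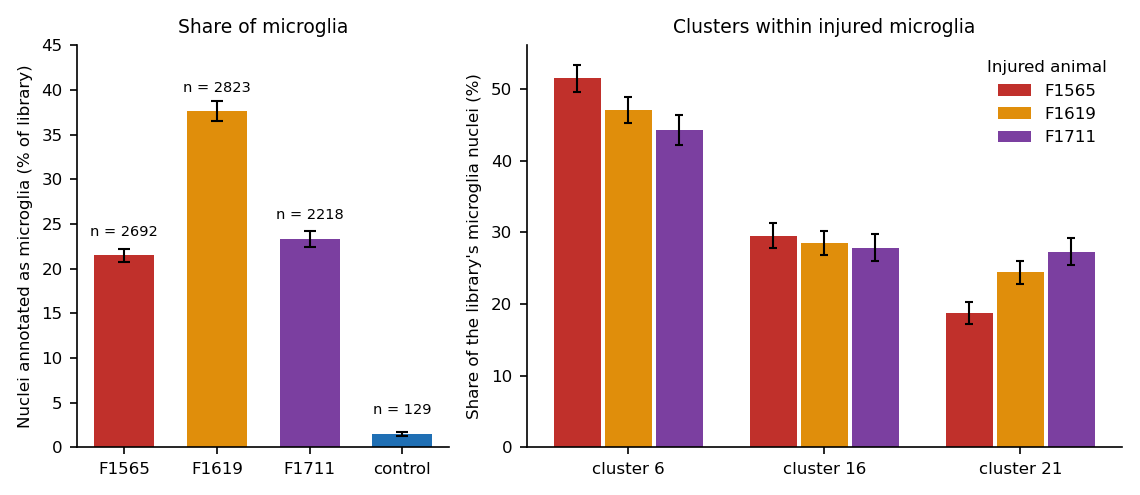
Left, nuclei annotated as microglia as a percentage of each library, with the number of nuclei; right, the share of each injured library's microglia in clusters 6, 16 and 21. Bars are shares and error bars exact 95% binomial intervals. The 3 injured libraries sit between 21.5% and 37.6% and the control library at 1.5%, and cluster 6 is the largest cluster in each animal.

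Injured microglia were also the deeper ones. The median nucleus held 2428 UMIs in F1565, 3930 in F1619 and 3183 in F1711, against 793 in the control library. The class summed to 7181657, 12056938 and 7992141 UMIs in these 3 libraries and to 124463 UMIs in the control. Levels below are CPM, the UMIs of a gene in the summed nuclei scaled to 1000000 UMIs of the genes listed in both tables, and 1 UMI in control microglia is worth 8.03 CPM. Between any pair of libraries 15 to 27 nucleus barcodes were shared.

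Pan-myeloid genes were high in the class as a whole. The 20 genes of this list that both cohorts measured, among them *PTPRC*, *SPI1*, *ITGAM* and *DOCK2*, summed to 12851, 13985 and 13706 CPM in injured microglia and to 12630 CPM in control microglia. In the other injured cell types they summed to between 385 and 1162 CPM. Of the label genes, *CD74*, the invariant chain that escorts MHC class II, was at 1429, 1014 and 1197 CPM in F1565, F1619 and F1711, and at 8.03 CPM in the control. The orphan receptor gene *GPR34* went the other way, with 20.5, 34.0 and 40.0 CPM in the injured libraries and 289 CPM in the control. These genes, both used to name the class, were thus high in different cohorts. *CD74* was in addition not restricted to microglia after injury, with up to 654 CPM in endothelial cells of F1619. *GPR34* was higher in oligodendrocyte precursor cells (OPC) of F1619, at 51.3 CPM, than in microglia of that library.

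Genes that separated injured microglia from every other injured cell type were ranked by the smallest log2 ratio, over the 3 libraries, to the highest other cell type of the same library, and the values chose the genes, so that they are a description. *RBM47*, an RNA-binding protein gene, led with 1975, 2328 and 2259 CPM and a smallest log2 ratio of 5.24. The integrin chain gene *ITGAM*, the checkpoint receptor gene *HAVCR2* (TIM-3), the coagulation factor gene *F13A1* and the inflammasome sensor *NLRP3* followed, and the last of the 20 was the CSF1 receptor gene *CSF1R* at 4.29.

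The class was not uniform. The deposited clustering divided injured microglia into clusters 6, 16 and 21 and 21 nuclei of cluster 27. Cluster 6 held 51.5%, 47.1% and 44.3% of the class in F1565, F1619 and F1711. Cluster 16 held 29.5%, 28.5% and 27.8%, and cluster 21 held 18.7%, 24.4% and 27.3%. All 3 clusters were present in each animal, and the share of cluster 21 differed between F1565 and the other animals by more than counting error. Control microglia formed a single cluster.

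Several homeostatic genes were highest in cluster 21. The 17 genes of the homeostatic list that both cohorts measured summed to 3118 CPM there, 2440 CPM in cluster 6 and 619 CPM in cluster 16. *SALL1*, a microglial identity factor, was at 48.5 CPM there against 0.988 in cluster 6 and 3.18 in cluster 16, and at 64.3 CPM in control microglia. *CX3CR1* was at 29.3, 0.988 and 3.98 CPM in clusters 21, 6 and 16, and *IGF1*, a growth factor gene, at 292, 12.4 and 39.5 CPM. Cycling genes peaked in the same cluster: the topoisomerase gene *TOP2A* was at 363 CPM in cluster 21, 124 in cluster 16 and 11.5 in cluster 6. *S100A8*, an alarmin gene of neutrophils and monocytes, was also highest in cluster 21, with 94.3 CPM.

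The list of monocytes and other macrophages was highest in cluster 6 as a sum. Its 17 genes that both cohorts measured summed to 5171 CPM there, 2712 CPM in cluster 21 and 1975 CPM in cluster 16. Not every gene of the list followed: *ITGA4* was highest in cluster 16 and *S100A8* in cluster 21. The scavenger receptor gene *CD163* was at 741 CPM in cluster 6, 228 in cluster 21 and 93.9 in cluster 16, and the mannose receptor gene *MRC1* at 372, 106 and 48.0 CPM. *VCAN*, the versican gene, listed as a monocyte marker, was at 357, 67.5 and 114 CPM. It was not confined to this class, with 1434 CPM in OPC of F1619. Clusters 6 and 21 shared *MERTK*, a receptor for apoptotic cells, at 1306 and 1286 CPM, as well as *ITGAM* at 2236 and 2095 CPM.

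Cluster 16 carried lymphocyte genes. They were higher there than in the other clusters of the class: *SKAP1*, an adaptor of T cells, was at 447 CPM there against 3.95 in cluster 6 and 8.33 in cluster 21, and the T cell receptor component *CD3E* at 97.1, 0.198 and 0.373 CPM. The B cell genes *MS4A1* (CD20) and *PAX5* were at 137 and 81.7 CPM in cluster 16 and below 2 CPM in clusters 6 and 21. Of its 2216 nuclei, 847 (38.2%) had 2 or more UMIs of the T and NK list without as many of the B list, 413 (18.6%) had the reverse, 51 (2.30%) had both and 905 (40.8%) had neither. On the 16 T and NK genes that both cohorts measured, 2 or more UMIs were found in 40.3% of cluster 16, 12.4% of cluster 6 and 12.7% to 13.5% of the nuclei of other cell types in the injured libraries. Genes of the pan-myeloid list were present in cluster 16 as well. They had 2 or more UMIs in 98.8% of its nuclei against 49.9% to 71.4% of nuclei of the other cell types in the injured libraries. Several of them, such as *PTPRC* and *DOCK2*, are genes of leukocytes in general, so that this share does not tell myeloid cells from lymphocytes. For the macrophage list the shares were 63.9% against 11.5% to 25.5%. That list includes the leukocyte integrin gene *ITGA4*, which was highest in cluster 16, so that its share is not specific to macrophages either. Control microglia, with a median of 793 UMIs, were too shallow for this count. After thinning to 500 UMIs a T and NK UMI was found in 39.8% of cluster 16 and in 7 of 129 control microglia (5.43%). Cluster 16 was also the shallowest of clusters 6, 16 and 21, with a median of 1497 UMIs against 3727 in cluster 6 and 4127 in cluster 21. It supplied 13.95% of the UMIs of injured microglia.

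**Figure D2:**
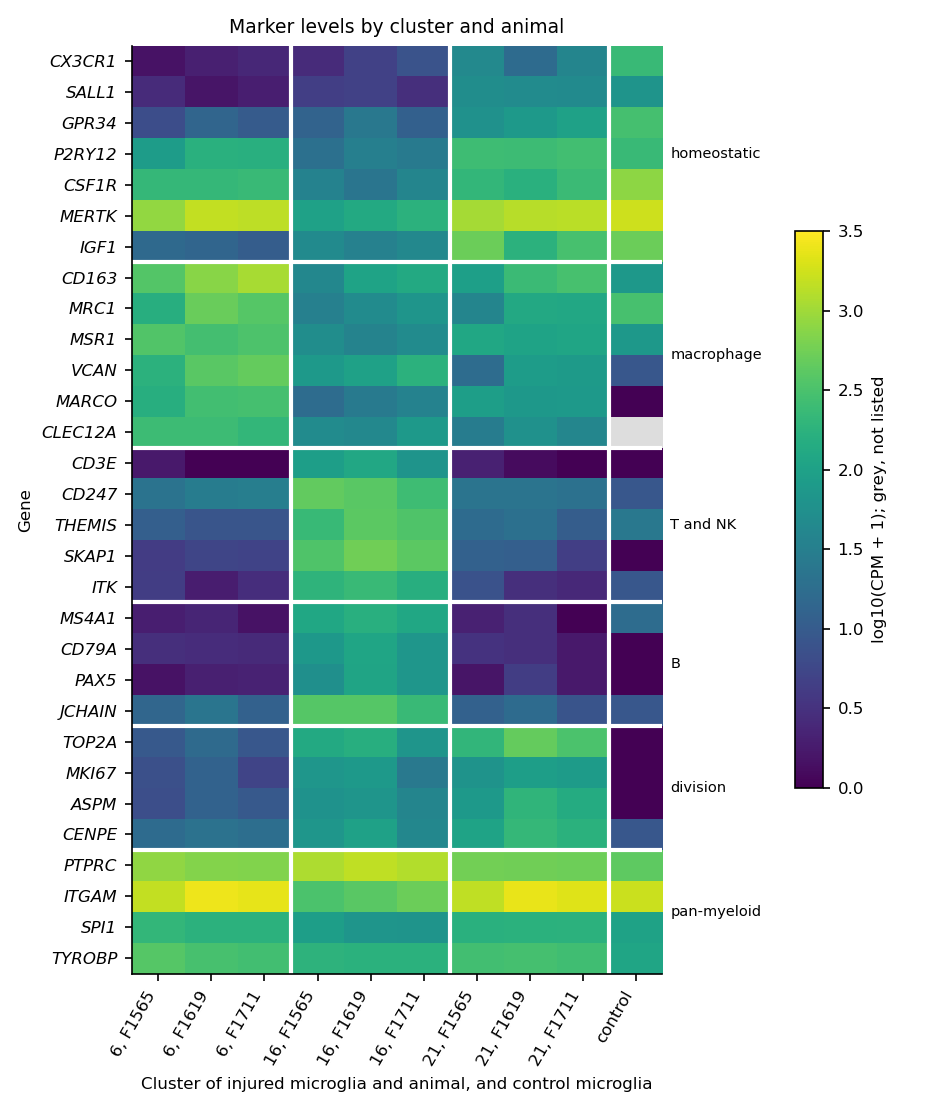
Levels of marker genes (rows, grouped by list) in clusters 6, 16 and 21 of each injured animal and in control microglia (columns), as log10(CPM + 1); grey marks a gene that was not listed for the control cohort. Cluster 21 carries *SALL1* and *CX3CR1*, cluster 6 *CD163* and *VCAN*, and cluster 16 *SKAP1*, *CD3E* and *MS4A1*, in each of the 3 animals.

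Control microglia also had UMIs of lists named for other cell types. Of 129 nuclei, 27 (20.9%) had 2 or more UMIs of the macrophage list and 17 (13.2%) had 2 or more of the endothelial list, and 25 of the 27 and 15 of the 17 also had 2 or more homeostatic UMIs. In the other control nuclei the shares were 3.20% and 2.13%. The excitatory neuron list reached 2 UMIs in 30 control microglia (23.3%). In injured microglia, which were deeper, 80.9%, 88.7% and 87.8% of nuclei in F1565, F1619 and F1711 had 2 or more UMIs of the macrophage list. At 500 UMIs a nucleus, 63.7%, 70.8% and 72.2% of these nuclei had a UMI of this list, against 41.1% of control microglia. The endothelial receptor gene *FLT1* stood at 570 CPM in the control class and at 128, 106 and 113 CPM in the injured libraries. It reached at most 299 CPM in the other control cell types, so that in this library it was highest in the microglia class. After injury it was at up to 1393 CPM in endothelial cells of F1711. The endothelial list summed to 587 CPM in control microglia. Of its 5 tested genes, 3 lay above the control in all 3 libraries and 1, *FLT1* itself, lay below. *LYVE1*, a gene of perivascular macrophages and lymphatic endothelium, stood at 241 CPM against 2.11, 16.5 and 25.3 CPM. A refit of the comparison below left out nuclei with 2 or more T and NK UMIs or 2 or more monocyte and macrophage UMIs. It kept 102 of 129 control nuclei, and 292 of 2692, 158 of 2823 and 151 of 2218 nuclei of F1565, F1619 and F1711. The cut cannot single out macrophages. In cluster 21, where the homeostatic list was highest, 90.5% of nuclei also had 2 or more UMIs of the macrophage list. Of the 342 genes at an adjusted p under 0.05 in the full fit, 341 were tested in this refit and 211 passed in the same direction. The part of the endothelial and neuron UMIs was not tested. In summed nuclei a change in the proportion of clusters and a change within a cell cannot be told apart.

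The comparison of the cohorts asked which genes differed after injury in the nuclei annotated as microglia. Cluster 6 held 47.8% and cluster 16 held 28.7% of the injured nuclei of this class, and *SALL1* and *CX3CR1* were low in both. From staining, the paper describes nearly all macrophages of the ischemic zone at the day of sampling as peripheral. It adds that resident microglia could not be fully excluded there. How many of the injured nuclei were resident microglia was not tested. The 3 injured sums were compared with the 1 control sum over 13467 genes by edgeR's quasi-likelihood test; a call needed a Benjamini-Hochberg adjusted p under 0.01, an absolute natural-log fold change over 0.25 and a UMI in 10% of the microglia nuclei of either cohort. No gene was called (0%), although 2855 genes had an unadjusted p under 0.05. DESeq2 under the same rule called 297. With an adjusted p limit of 0.05, 201 genes (1.49%) were higher and 141 (1.05%) lower in injured microglia, and the gene values below are read at this less strict limit. Of the 342 genes, 0 passed it without F1711 (smallest edgeR adjusted p = 0.0998), 196 without F1619 and 342 without F1565. Each of these fits set 2 libraries against 1 and kept the direction of each gene, and the size could stay near its value, as for *INPP5D* at -1.24 and *CTSB* at 3.63 on the log2 scale without F1711. Of the genes tested, 3021 had no UMI in control microglia and 4409 had 1 to 3, so that most of the table lay at the edge of detection in the control. The median fitted log2 difference over all genes was 0.42, and 0.17 with library size in place of TMM scaling, so that single values are to be read against this offset.

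Part of the homeostatic list was lower in injured microglia. Of 17 tested, 4 were lower at the 0.05 limit and 0 higher, against 1.05% and 1.49% of all genes, and 13 of the 17 lay below the control value in all 3 libraries, against 40.5% of all genes. The median log2 difference of the list was -1.40. DESeq2 called 5 of the 17 under the stricter rule, 0 of them higher, against 162 called lower and 135 higher of all 13467 genes. *CX3CR1* showed 11.7, 5.84 and 14.6 CPM in F1565, F1619 and F1711 against 233 CPM, a log2 difference of -4.22 ± 0.67 (SE, edgeR, adjusted p = 0.049). *GPR34* differed by -2.96 ± 0.47 (adjusted p = 0.0483). *CSF1R*, on which microglia depend for survival, showed 181, 175 and 213 CPM against 795 CPM (-1.83 ± 0.19, edgeR adjusted p = 0.0291). *SELPLG*, the selectin ligand gene, showed 46.1, 63.4 and 69.0 CPM against 281 CPM (-2.00 ± 0.32, adjusted p = 0.049). Every injured library lay below the control for these 4 genes. None of the 4 passed without F1711, where edgeR adjusted p was 0.116 for *CX3CR1*, *GPR34* and *SELPLG* and 0.11 for *CSF1R*, although the log2 differences of -4.49, -3.15, -2.11 and -1.90 for *CX3CR1*, *GPR34*, *SELPLG* and *CSF1R* were no smaller in size. With injured nuclei of cluster 21 alone, a choice made after seeing the data, the log2 difference was -2.70 for *CX3CR1* and -1.71 for *GPR34*, and edgeR adjusted p was 0.0995, 0.0791 and 0.0917 for *CX3CR1*, *GPR34* and *SELPLG* against 0.0392 for *CSF1R*. Cluster 6 alone gave -7.50 and -4.59 for *CX3CR1* and *GPR34*, and cluster 16 alone -5.83 and -4.15. Without cluster 16, edgeR adjusted p was 0.0574, 0.0573 and 0.0613 for *CX3CR1*, *GPR34* and *SELPLG* and 0.0374 for *CSF1R*.

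Other homeostatic genes did not pass the less strict limit in edgeR, although *SLCO2B1* passed it in DESeq2. The transporter gene *SLCO2B1* was at 156, 353 and 375 CPM against 1197 CPM (edgeR adjusted p = 0.117). *P2RY12* was at 117, 173 and 182 CPM against 233 CPM (adjusted p = 0.648), and *MERTK* at 785, 1278 and 1238 CPM against 1687 CPM. The TGF-β receptor gene *TGFBR1* stood above its control value of 56.2 CPM in each library, at 139, 213 and 224 CPM (adjusted p = 0.107). Between animals, homeostatic genes were lowest in F1565 for 9 of the 13 genes with at least 100 UMIs per library, against 3812 of all 8004 genes of this depth.

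*CX3CR1* was also lower by the share of nuclei with a UMI, which rests on the same UMIs and mixes the clusters of the class. A UMI of it was found in 2.60%, 2.27% and 4.24% of injured microglia nuclei and in 19.4% of control microglia (25 of 129; 12.95 to 27.3), although control nuclei were shallower. After thinning every nucleus to 500 UMIs the shares were 0.632%, 0.248% and 0.766% against 10.1%. Excitatory neurons, which lack the gene, had it in 0.329%, 0.430%, 0.564% and 0.222% of nuclei in F1565, F1619, F1711 and the control.

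Genes of antigen presentation were almost undetected in control microglia and abundant after injury. All 5 tested MHC class II genes lay above the control value in the 3 injured libraries, against 49.8% of all genes. At the 0.05 limit 3 passed as higher, against 1.49% of all genes. *CD74* rested on 1 control UMI, and its ratio to the control was 146 with a counting interval from 26.3 to 5785 (edgeR adjusted p = 0.0182). *CIITA*, the master regulator of MHC class II, was at 384, 380 and 330 CPM against 1 control UMI (ratio 45.6, 8.18 to 1802, adjusted p = 0.0172). *HLA-DPB1*, a class II β chain, was at 328, 333 and 322 CPM with no control UMI, at least 13.6-fold higher taking 3 control UMIs as the floor (edgeR adjusted p = 0.0172). It was found in 48.6%, 61.5% and 54.2% of injured microglia nuclei and in 0 of 129 control nuclei. In excitatory neurons it was found in 5.14% to 8.97% of injured and 0.278% of control nuclei.

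The MHC class I light chain *B2M*, which most cells carry, was at 6810, 3637 and 3278 CPM in injured microglia and had 1 UMI in the control (ratio 543, 97.5 to 21466, edgeR adjusted p = 0.0308). *NLRC5*, the class I transactivator, was at 521, 374 and 288 CPM with no control UMI. Of 12 tested class I genes, 11 lay above the control in all libraries, against 49.8% of all genes, and 2 passed as higher, against 1.49%. The difference was not particular to microglia: *B2M* was at a median of 1884 CPM over the 18 sums of other injured cell types and at 7.10 CPM over the 6 of the control, and the microglial effect minus that of the other types was not called (log2 difference 1.64 ± 1.28, edgeR adjusted p = 0.633). A *B2M* UMI was found in 96.7%, 98.6% and 91.7% of injured excitatory neurons and in 108 of 5402 of the control. The study's methods name 1 Ensembl gene annotation for its libraries, but the deposited gene lists differed. There were 32323 genes listed for the injured cohort and 16383 for the control. Of the shared genes, 456 had no UMI in any injured nucleus. *ABCG1* was at 0 CPM in every other injured cell type, against a median of 25.6 CPM over those of the control. The cause of these differences, and their part in the values of *B2M*, was not tested. *CD74*, *CIITA* and *HLA-DPB1* were likewise lower across the control cell types. Their medians over the other types were 164, 38.4 and 28.2 CPM after injury against 1.82, 1.25 and 1.06 CPM in the control. So were *MX1*, *LGALS3*, *CD63*, *TFEC* and *CD14*, whose values follow. For all of these genes injury and a difference between the tables cannot be told apart.

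Interferon-induced genes lay above the control, and the number that passed depended on the tool. All 33 tested were above it in the 3 injured libraries, against 49.8% of all genes. At the 0.05 limit edgeR passed 2 as higher, against 1.49% of all genes. An unadjusted edgeR p under 0.05 was found for 23, against 2855 of all 13467. DESeq2 called 11 under the stricter rule, all higher, against 135 called higher of all 13467. *HERC6*, an interferon-induced ligase gene, passed with 1144, 749 and 598 CPM against 32.1 CPM (log2 difference 4.94 ± 0.74, edgeR adjusted p = 0.0446). *DDX60*, an antiviral helicase gene, was at 3605, 1599 and 1260 CPM against 201 CPM and did not pass (adjusted p = 0.0947), nor did *PARP14* at 1402, 847 and 707 CPM against 129 CPM (adjusted p = 0.0677). The spread between the animals was wide for these genes. *MX1*, an antiviral GTPase gene, also lay above the control in the other injured cell types, with a median of 491 CPM against 6.83 CPM in the control, and its microglial effect minus theirs was not called in the test below (log2 difference 0.69 ± 1.05, edgeR adjusted p = 0.935).

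That spread had an order. With 32 interferon genes measured at 100 UMIs or more in every library, F1565 was highest and F1711 lowest for 32 of 32. Over all 8004 genes of this depth, F1565 was highest for 2803 and F1711 lowest for 2588. The list summed to 19885, 10869 and 8642 CPM in F1565, F1619 and F1711. The order was kept in cluster 6 for 32 of 32 genes and in clusters 16 and 21 with 1 exception each, and astrocytes, endothelial cells and OPC had F1565 highest in 29 of 30, 32 of 32 and 32 of 32 genes. The chemokine gene *CXCL10*, which was not listed for the control, followed at 675, 188 and 122 CPM, and *IDO1*, the tryptophan-degrading enzyme gene, at 687, 86.2 and 64.9 CPM. Each animal was 1 library, so that animal and library cannot be told apart.

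The 10 genes with the widest spread between animals, chosen by that spread, did not all share this order. *SLC11A1* led with 113, 694 and 1428 CPM in F1565, F1619 and F1711, followed by *IDO1*. The lipid-handling genes *PPARG*, a nuclear receptor, *PLTP*, a phospholipid carrier, and *SPP1* were lowest in F1565, as *SLC11A1* was, at 33.0, 28.2 and 76.8 CPM against at least 144 CPM in the other animals. *CDC20B* was lowest in F1619, at 630, 102 and 559 CPM, and *SLC18B1*, *COLEC12*, *CCDC3* and *VCAM1* completed the set.

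*MX1* shows how far such shares carry. It was found in 91.5%, 82.5% and 68.9% of injured microglia nuclei and in 1 of 129 control nuclei (0.775%). At 500 UMIs per nucleus the shares were 64.6%, 37.2% and 28.8%, against 18.9%, 10.9% and 5.08% in excitatory neurons of the same libraries.

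Proliferation genes ordered the animals differently. *TOP2A* was at 76.8, 173 and 119 CPM in F1565, F1619 and F1711 and *MKI67* at 30.2, 43.5 and 33.5 CPM, and neither had a control UMI. Of 28 tested genes, 15 had no control UMI, and 1 passed as higher at the 0.05 limit, against 1.49% of all genes (*BRIP1*, a DNA repair helicase gene, 75.3, 88.1 and 85.8 CPM against 1 UMI). F1619 was highest for 16 of the 16 genes with enough UMIs and F1565 lowest for 15, against 2889 and 3812 of the 8004 genes. In cluster 21 the list summed to 1224, 2527 and 1989 CPM in the same order of libraries, and in cluster 6 to 294, 357 and 297 CPM. Cluster 16 had another order, with 795, 1045 and 487 CPM, and F1711 was lowest there for 14 of the 16 genes.

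Lysosomal and lipid-handling genes were higher for part of the list. Of 22 tested, 6 were higher at the 0.05 limit and 0 lower, against 1.49% and 1.05% of all genes. DESeq2 called 7 under the stricter rule, 6 of them higher, against 297 called of all 13467 genes, 135 of them higher. The cathepsin gene *CTSB* was at 294, 377 and 375 CPM against 32.1 CPM (log2 difference 3.68 ± 0.37, edgeR adjusted p = 0.0283), and *CTSS* at 667, 685 and 548 CPM against 201 CPM (1.90 ± 0.25, adjusted p = 0.0386). *LIPA*, the lysosomal acid lipase gene, was at 826, 606 and 581 CPM against 153 CPM (2.38 ± 0.37, adjusted p = 0.048), and the cholesterol carrier gene *NPC2* at 339, 283 and 335 CPM against 80.3 CPM (2.23 ± 0.30, edgeR adjusted p = 0.0386). *LGALS3*, galectin-3, was at 280, 270 and 253 CPM with no control UMI, at least 11.1-fold higher, and the tetraspanin gene *CD63* at 219, 156 and 163 CPM, at least 7.24-fold higher. Over the other cell types the median of *LGALS3* was 47.0 CPM after injury against 1.62 CPM, and that of *CD63* was 111 CPM against 3.23 CPM.

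Genes known from lipid-laden microglia varied more. *ABCA1*, a cholesterol exporter, was at 303, 768 and 769 CPM against 72.3 CPM (edgeR adjusted p = 0.107). *SPP1*, osteopontin, was at 76.8, 433 and 404 CPM against 64.3 CPM (adjusted p = 0.435), so that F1565 lay near the control. The lipid receptor gene *TREM2* was at 9.27, 17.9 and 41.8 CPM against 64.3 CPM (8 UMIs, adjusted p = 0.673). *IGF1* was at 145, 65.0 and 113 CPM against 522 CPM (adjusted p = 0.10).

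Of the MiT factors, which drive lysosome genes, *MITF* was at 655, 1021 and 845 CPM against 129 CPM (log2 difference 2.94 ± 0.37, edgeR adjusted p = 0.0353). *TFEC*, a relative confined in the main to macrophages, was at 2047, 1735 and 1552 CPM against 153 CPM (3.78 ± 0.31, adjusted p = 0.0214), but it was as high in the other cell types. Its median over the other injured cell types was 1577 CPM against 143 CPM in the control. At 500 UMIs a nucleus it was found in 61.7%, 54.7% and 52.1% of injured microglia and in 58.9%, 56.6% and 50.7% of injured excitatory neurons. *TFEB* was at 142, 196 and 183 CPM against 297 CPM (adjusted p = 0.327).

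Signalling and adhesion genes showed differences in both directions. The costimulator gene *CD86* was at 288, 300 and 283 CPM against 88.4 CPM (log2 difference 1.96 ± 0.22, edgeR adjusted p = 0.0308), and the lipopolysaccharide co-receptor gene *CD14* at 218, 184 and 242 CPM against 3 UMIs (ratio 8.71, 2.98 to 42.3). *TGFB1*, the cytokine that maintains homeostatic microglia, was lower at 157, 153 and 155 CPM against 394 CPM (-1.10 ± 0.17, edgeR adjusted p = 0.0461). That call was lost without F1619 (0.107), without F1711 (0.149), without cluster 16 (0.0617), without nuclei of T, NK, monocyte or macrophage UMIs (0.0891) and with DESeq2 (adjusted p = 0.071). *NLRP3* was at 199, 179 and 156 CPM against 185 CPM. *INPP5D*, a lipid phosphatase gene that restrains immune receptors, was at 874, 975 and 967 CPM against 2611 CPM (-1.24 ± 0.14, edgeR adjusted p = 0.0308). In the other types the median of *TGFB1* was 29.8 CPM after injury against 53.9 CPM and that of *INPP5D* 96.2 against 214 CPM. That of *CD14* was 18.0 against 0 CPM.

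The integrin gene *ITGA4*, used by leukocytes to enter tissue, was at 257, 251 and 236 CPM with no control UMI, at least 10.3-fold higher, and *ITGAL* at 141, 141 and 104 CPM, at least 5.39-fold higher. Both were highest in cluster 16: *ITGA4* was at 789 CPM there, 222 in cluster 6 and 45.9 in cluster 21. Among 20 pan-myeloid genes, *ARHGAP15*, a Rac regulator, was at 2730, 2396 and 2277 CPM against 651 CPM (2.17 ± 0.22, adjusted p = 0.0283), 3 genes passed as higher and 1 as lower, against 1.49% and 1.05% of all genes. Hypoxia and glycolysis genes gave 0 higher and 1 lower gene of 15, against the same 1.49% and 1.05%: *HK2*, a hexokinase gene, at 80.2, 70.2 and 71.4 CPM against 313 CPM (-1.84 ± 0.21, edgeR adjusted p = 0.0316). Of the 10 Nogo receptor and pathway genes tested 0 passed in edgeR or DESeq2. An unadjusted edgeR p under 0.05 was found for 3, against 2855 of all 13467 genes. *LILRB2*, the Nogo receptor gene on which the paper centres, was not listed for both cohorts and was not tested, nor were *RTN4R* and *S1PR2*. *RTN4* was at 382, 289 and 346 CPM against 257 CPM, and *RTN4RL1*, a gene of the Nogo receptor family, at 36.9, 36.7 and 34.7 CPM against 104 CPM.

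**Figure D3:**
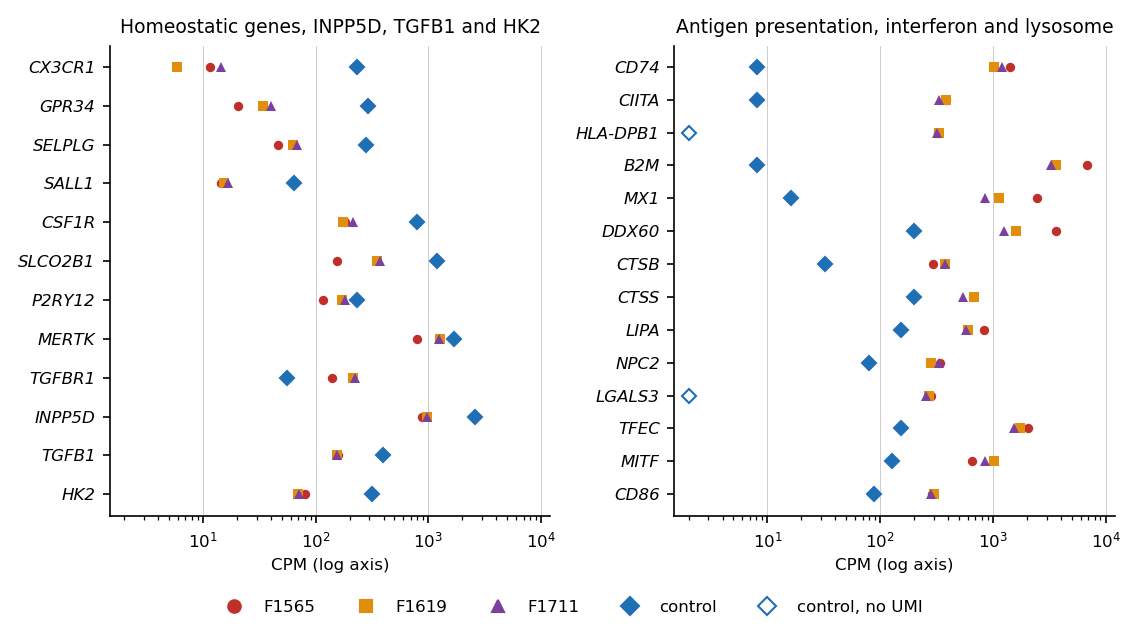
Levels of named genes in microglia of the 3 injured animals and of the control library, in CPM on a log axis; an open diamond at the left edge marks a gene with no control UMI. *CX3CR1*, *GPR34*, *SELPLG* and *CSF1R* lie below the control in each animal, *P2RY12* lies closer to it, and *CD74*, *B2M* and *MX1* lie far above it.

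Which of these differences were larger or smaller in microglia than elsewhere was asked in a second fit. The sums of 7 cell types in 4 libraries (28 sums) entered 1 edgeR model with the library as a block, and the injury effect in microglia minus the mean effect of the 6 other cell types was tested by the same call. Of 14498 genes, 195 (1.35%) had a higher and 182 (1.26%) a lower effect in microglia. The split between directions depended on scaling: it was 96 higher and 236 lower with library size alone, 81 and 249 with RLE factors, and 64 and 340 with DESeq2. Without replicate F1619 the count was 177, and without F1565 it was 209.

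*FNBP1* and *PTPN1* were among the 10 genes with the largest higher effect, out of called genes with at least 10 UMIs in microglia of each cohort. *FNBP1*, a membrane-curving protein gene of endocytosis, was at 1251, 1184 and 1342 CPM in injured and 281 CPM in control microglia, and its median over the other types was 363 CPM against 583 CPM in the control. The difference of effects was 3.05 ± 0.24 on the log2 scale (edgeR adjusted p = 8.25e-08). The phosphatase gene *PTPN1* was at 802, 781 and 836 CPM against 104 CPM in microglia, with a median of 104 CPM in the other injured types against 92.9 CPM (2.98 ± 0.33, adjusted p = 7.43e-06). *MITF* was among them (2.85 ± 0.43, edgeR adjusted p = 0.000269), whereas *TFEC*, which differed in all types, was not (0.26 ± 0.25, adjusted p = 0.874).

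*DPYD*, a pyrimidine-degrading enzyme gene, was at 702, 828 and 796 CPM against 96.4 CPM (2.59 ± 0.41, edgeR adjusted p = 0.000392). *AOAH*, which detoxifies lipopolysaccharide, was at 335, 352 and 351 CPM against 121 CPM (2.43 ± 0.33, adjusted p = 8.01e-05). *DMXL2*, *MCTP2*, *MGAT4A*, *SLCO3A1* and *KCNMA1* completed the 10 largest. The formin gene *FMNL2* of the adhesion list (2.01 ± 0.31) and *ATP6V1A*, a subunit of the proton pump of lysosomes (1.40 ± 0.31), were also called. The call of *ATP6V1A* was lost on leaving out any 1 injured library (edgeR adjusted p = 0.0395, 0.0888 and 0.0215 without F1619, F1565 and F1711), with DESeq2 (0.155) and after thinning (0.562). Of the 33 interferon genes edgeR called 0, with 2 at an unadjusted p under 0.05, and DESeq2 called 2, both lower in microglia. Of the 22 lipid-handling genes edgeR called 0, with 6 at an unadjusted p under 0.05, and DESeq2 called 2, again lower. The MHC class I and II, inflammatory and proliferation lists had 0 calls in both tools, with 2, 1, 3 and 6 genes at an unadjusted p under 0.05 in edgeR. Over all 14498 genes of this fit, 2303 had an unadjusted edgeR p under 0.05, and DESeq2 called 404, of them 340 lower.

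Lower effects took in 4 of 17 homeostatic genes, against 1.26% of all genes. They were *CSF1R* (-3.25, edgeR adjusted p = 0.00103), *SLCO2B1* (-4.73, edgeR adjusted p = 3.94e-07), *SELPLG* and *CX3CR1*. For each of the 4 at least 1 other control cell type had no UMI, and the median over the other types was 0.472 CPM after injury and 0 CPM in the control for *CX3CR1*, and 1.78 and 0.0293 CPM for *SELPLG*. The list's median difference of effects was -1.87, against 0.40 over all genes. The call of *CX3CR1* was lost on leaving out any 1 injured library, with edgeR adjusted p values of 0.0265, 0.0173 and 0.0214 without F1619, F1565 and F1711. *HK2* was also called, with 2.72 CPM in the other injured types against 0.234 CPM. So was *CDHR3*, a cadherin gene, at 5.06, 2.25 and 6.54 CPM against 313 CPM (-7.09, edgeR adjusted p = 9.7e-08). The endoglin gene *ENG*, known from endothelium, was called too, at 21.4, 25.8 and 37.6 CPM against 257 CPM in microglia (-5.70, edgeR adjusted p = 1.17e-07). *FLT1* had a difference of -3.71, the 1 call among 5 tested genes of the endothelial list.

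The myeloid genes *LCP2*, *TYROBP* and *SLC11A1* had a lower effect as well, and they too were near 0 in the other control types. *LCP2*, an adaptor of leukocyte receptors, was at 555, 652 and 685 CPM against 731 CPM in microglia, while its median over the other types was 9.20 CPM after injury and 0.162 CPM in the control (edgeR adjusted p = 3.15e-05). *TYROBP*, the signalling partner of TREM2, was at 319, 283 and 259 CPM against 112 CPM in microglia, above the control, and yet had a lower effect, with 27.3 CPM in the other injured types against 0.205 CPM. *SLC11A1*, a metal transporter gene of phagosomes, was at 113, 694 and 1428 CPM against 1085 CPM in microglia, with 14.4 CPM in the other injured types against 1.17 CPM. The pan-myeloid genes called were *TYROBP*, *ITGAM*, *RUNX1* and *APBB1IP*, 4 of 20, and all had a lower effect, against 1.26% of all genes. Of the 182 lower calls, 34 had a control cell type without any UMI of the gene, and none of the 195 higher calls did. Conversely, 29 of the 195 higher and 0 of the 182 lower calls had 3 or fewer UMIs in control microglia. Within microglia, 178 of the 182 lower calls were fitted lower and 4 higher, and 194 of the 195 higher calls were fitted higher. Microglia were 27.5% of injured and 1.5% of control nuclei, and the part of microglial RNA in the other types' values was not tested.

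**Figure D4:**
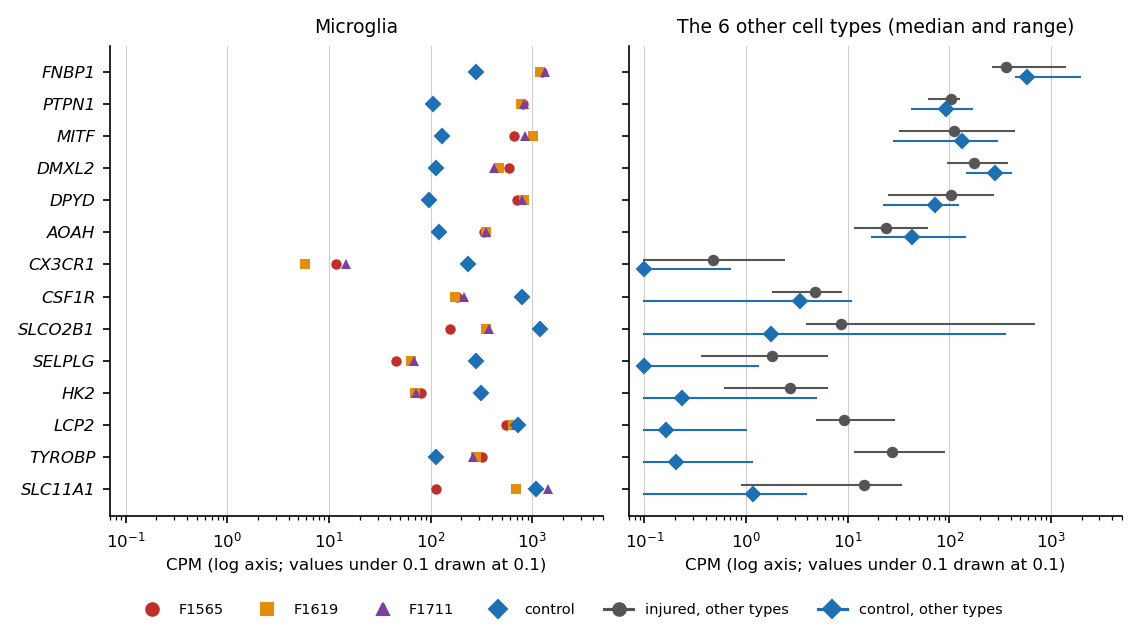
Levels of genes with a called difference of effects, in CPM on a log axis: left, microglia of each injured animal and of the control; right, the median (point) and range (line) over the 18 injured and 6 control sums of the other cell types. For *FNBP1*, *PTPN1* and *MITF* each injured library lies above the control in microglia, whereas for *LCP2* and *TYROBP* the median of the other types lies below 1 CPM in the control and at 9.20 and 27.3 CPM after injury.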

How the data were processed

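Tables of raw UMI counts per nucleus were deposited by the authors, 1 for the injured and 1 for the control cohort, with cell types and clusters in annotation tables; the submitters' processing notes name Cell Ranger 3.1.0 and Seurat, and the labels the build calJac3. The members and gene lists were chosen with earlier results of these data known. The 16383 genes listed in both tables were used; 456 had no injured UMI and were left out. The UMIs of all nuclei of 1 type and 1 library were added up, and these sums were tested in edgeR 4.0.16 (R 4.3.3) with TMM scaling, filterByExpr and quasi-likelihood F tests, with Benjamini-Hochberg adjustment; DESeq2 1.42.0 and the other settings in the closing section were alternatives. The script was tested on simulated counts. With 3 injured and 1 control library, the spread comes from the injured libraries alone. Doublets were not called again. Named were genes of the lists and the 10 largest and 10 smallest called differences of effects with at least 10 UMIs in microglia of each cohort. Also named were the 20 genes most above the other injured types, with at least 20 CPM in microglia of each injured library. The last were the 10 that differed most between animals, with at least 100 UMIs in microglia of each injured library. Genes at or under 3 control UMIs have ratios with exact 95% counting intervals or a bound, not fitted folds. Nuclei were thinned once at random to 500 UMIs, and none was shallower. Sequences were not used here, and a few genes that the naming rule selects are not reported here.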

Additional observations from a re-analysis of the deposited data

Results flagged for a closer look

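The injury effect differed between microglia and the mean of the other cell types for 377 genes by a test of the difference itself, with 195 higher and 182 lower in microglia; the direction of the split moved with the scaling.

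Data outside the comparisons held a signal as well: 30 genes listed for the injured cohort alone had a UMI in at least 10% of injured microglia nuclei. Among them, and chosen after their values were seen, were the complement genes *C1QB* and *C1QC*, found in 50.1% and 49.3% of these nuclei, *GBP1* in 42.2% and *TNF* in 11.4%. Control values of these genes were not analysed here.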

How the results depend on the processing

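The count of genes that differed between injured and control microglia was 0 with edgeR and also with RLE factors, without a low-count filter, with at least 10 UMIs in each cohort, with all genes, and with nuclei that had a pan-myeloid UMI. It was 297 with DESeq2, 4 with library size alone, 342 at an adjusted p limit of 0.05, 18 for nuclei with at most 2500 genes, 80 after thinning and 210 without nuclei with T, NK, monocyte or macrophage UMIs. Leaving out 1 injured library gave 0 to 384 genes, the latter without F1565 and 6 without F1619. With cluster choices made after seeing the data it was 1 for cluster 21, 86 for cluster 6, 673 for cluster 16 and 0 without cluster 16. The 377 differences of effects became 696 at 0.05, 210 after thinning, 222 against glia and endothelial cells only, and 177 to 258 on leaving out 1 library. They became 146 for cluster 21, 605 for cluster 6 and 545 for cluster 16, the last with 150 higher and 395 lower. Without the library block the count was 303. No paired analysis was possible because the control is 1 pooled library. Thinning moved the share of microglia nuclei with a UMI from 3.04% to 0.549% for *CX3CR1*, 83.8% to 39.8% for *CD74*, 81.0% to 43.5% for *MX1* and 92.7% to 56.2% for *TFEC*. None of the fitted log2 differences of 21 chosen genes between cohorts and of 10 between effects changed sign in any of 375 and 180 refitted values. Of the latter, 32 lost their call, most often *ATP6V1A*. Of all 342 genes at the 0.05 limit between cohorts, 6 had the other direction with injured nuclei of cluster 16 alone. The cause of these changes was not tested. Low genes are limited by control depth, where 1 UMI is worth 8.03 CPM.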
